A study of Mus musculus with 2 samples.

Results

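Matrix proteases and their inhibitors were described in mouse heart at embryonic day 12.5 from 2 RNA sequencing libraries. The members are the protein-coding genes whose symbols belong to the matrix metalloproteinases (MMP), the tissue inhibitors of metalloproteinases (TIMP), Reck, the ADAM proteases, the ADAMTS proteases and the ADAMTS-like genes. The rule reads symbols only, but the families were taken up with earlier results of these data known. The rule found 84 genes among 22240 protein-coding symbols and 34236 symbols of any type: 23 MMP, 4 TIMP, Reck, 32 ADAM, 19 ADAMTS and 5 ADAMTS-like genes. Both libraries, replicate 1 and replicate 2, were labelled heart, from embryos of a mixed C57BL/6 x 129S6 background with no treatment and no named allele. They form 1 group, so no contrast between conditions exists. Whether the hearts came from separate embryos or from pools is not stated in the labels, and the spread between the libraries may be technical.

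MMPs are zinc-dependent enzymes that cut collagens, proteoglycans and other proteins outside the cell. They are made as inactive precursors and are blocked by the TIMPs, small secreted proteins that fill the active site. ADAMs are mostly membrane-bound relatives that release the outer parts of other membrane proteins, such as growth factor precursors and Notch. ADAMTS enzymes are secreted and cut proteoglycans such as versican, procollagens and other matrix proteins, while the ADAMTS-like proteins have the same accessory domains but no protease domain. In the embryonic heart the matrix between myocardium and endocardium is built, invaded by cushion cells and then partly removed as trabeculae and valves take shape.

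Levels are FPKM, the fragments per kilobase of transcript scaled to library size that the authors deposited. The scaling sets genes of different length side by side, but differences between the libraries still varied with transcript length, as given below. Detection here means at least 1 FPKM in each of the 2 libraries. Absolute depth is unknown. The most common ratio among low genes put 1 fragment at 1.33 times as much in replicate 2. Replicate 1 would then be deeper by about that factor. Of 1819 genes above 0 and under 0.1 FPKM in both libraries, 244 lay within 0.05 log2 units of this ratio. The heart label was met by its markers, with 6 of 6 heart muscle genes detected at mean levels between 54.1 and 4314 FPKM. Endothelial, epicardial and cushion genes were also detected, 4 of 4 in each list, as were 4 of 4 macrophage genes, between 1.17 and 21.7 FPKM. Both red cell genes were detected, Hbb-y at 15961.5 FPKM on average, above every heart muscle gene listed, and Hba-x at 2490 FPKM. None of the 3 liver, 3 lung, 4 germ cell or 3 skeletal muscle genes was detected, at mean levels of 1.17 FPKM or lower. The liver genes Alb and Afp did pass 1 FPKM in replicate 2, at 1.12 and 1.49 FPKM. Fewer cells of a type and less RNA per cell cannot be told apart in these whole-tissue libraries.

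Of the 84 members, 37 were detected, or 44.0%, beside 52.4% of all protein-coding symbols. One more, Mmp17, reached 1 FPKM in replicate 1 only, and 46 stayed below it in both libraries. Of those 46, 21 were listed at 0 in both libraries, which is 25.0% of the members beside 20.3% of protein-coding symbols. The median over all 84 members was 0.554 FPKM, against 1.67 FPKM over all protein-coding symbols. Classes differed in how many members the heart RNA held: 7 of 23 MMPs, 3 of 4 TIMPs, 10 of 32 ADAMs, 12 of 19 ADAMTS genes and 4 of 5 ADAMTS-like genes, together with Reck. A 0 in these tables may also be an estimate that failed, so it is no proof of absence.

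**Figure D1:**
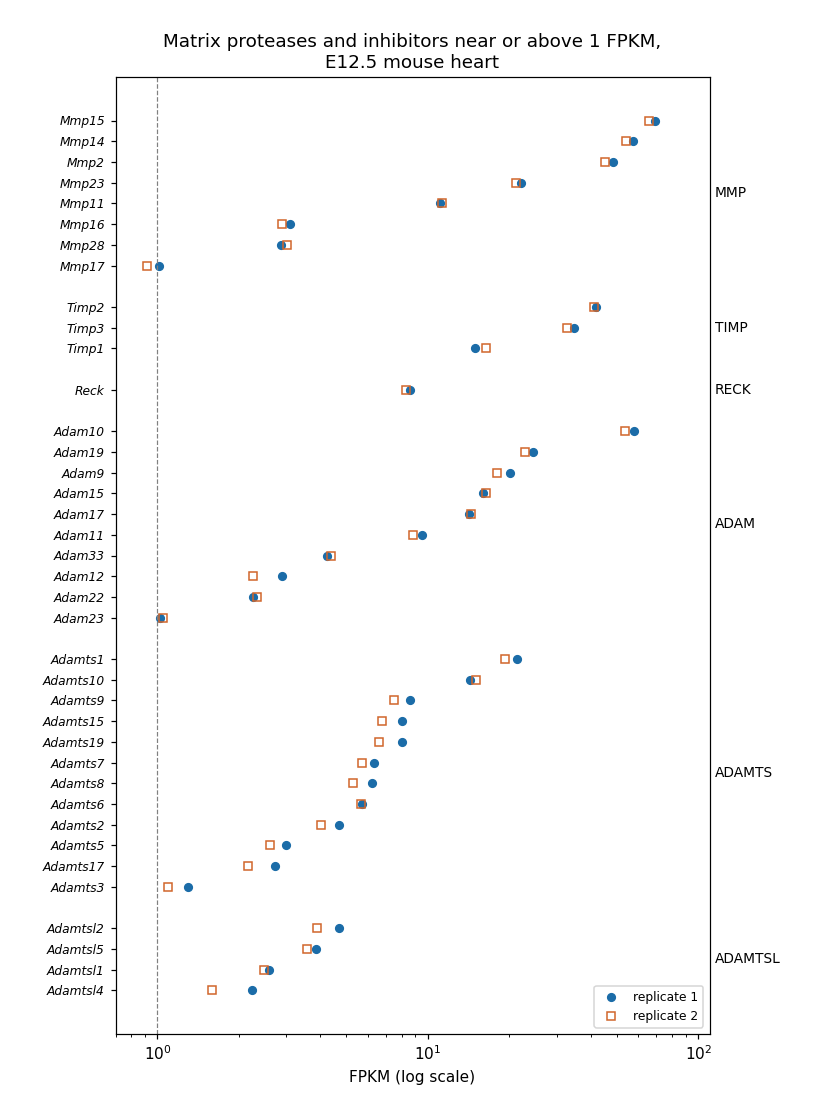
FPKM (log axis) of the 38 members that reached 1 FPKM in at least 1 library, by class, with filled circles for replicate 1, open squares for replicate 2 and a dashed line at 1 FPKM. Mmp15 is the highest member at 69.1 and 65.9 FPKM, and Mmp17 is the only gene shown whose libraries lie on either side of the line.

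Summed over its members, the MMP class had the highest level, at 211 ± 7.40 FPKM (SD, n = 2). The ADAM class followed at 150 ± 5.83 FPKM, then the TIMPs at 91.2 ± 0.981, the ADAMTS genes at 89.3 ± 6.36, the ADAMTS-like genes at 13.0 ± 1.41 and Reck at 8.44 ± 0.204 FPKM. The sums of the TIMPs and the ADAMTS genes overlapped between the libraries, with 91.8 and 90.5 FPKM for TIMPs and 93.8 and 84.8 FPKM for ADAMTS genes, while the other classes did not overlap. All members together made up 0.153% of the protein-coding sum in replicate 1 and 0.148% in replicate 2. Mmp15, Mmp14 and Mmp2 made up 80.6 ± 0.388% of the MMP sum. Adam10 alone made up 37.2 ± 0.546% of the ADAM sum, and Adamts1 and Adamts10 together 39.3 ± 1.70% of the ADAMTS sum.

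**Figure D2:**
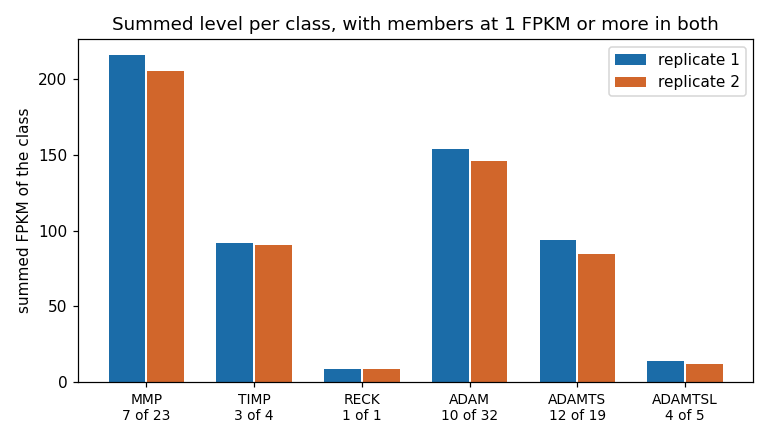
Summed FPKM of each class in replicate 1 (blue) and replicate 2 (orange), with the number of detected members of all members under each class name. The MMP bars are the tallest at 216 and 206 FPKM although only 7 of 23 members were detected.

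Membrane-anchored MMPs were the most abundant MMP transcripts. Mmp15, which encodes MT2-MMP, was the highest of all 84 members, with 69.1 FPKM in replicate 1 and 65.9 FPKM in replicate 2 (chromosome 8, 97876168 to 97898193, mm9). It ranked 819 among the 22240 protein-coding symbols. Mmp14 encodes MT1-MMP, a collagenase of the cell surface that also activates the precursor of MMP2, and had 57.4 and 53.9 FPKM (chromosome 14, 55050441 to 55060095). Mmp2, the gelatinase A gene, stood at 48.3 and 45.4 FPKM (chromosome 8, 95351227 to 95377316). The ranges of these 3 genes over the libraries did not overlap, so their order was the same in both. The log2 ratio of Mmp14 to Mmp2 was nevertheless small, 0.24 ± 0.00081 (SD, n = 2), and that of Mmp14 to Mmp15 was -0.27 ± 0.02. For scale, 95% of single protein-coding genes averaging at least 1 FPKM differed between the libraries by less than 0.22 log2 units. Ratios are on the log2(FPKM + 1) scale, which understates differences of low genes. Both of these small ratios fell within the wider limit of 0.30 taken from genes between 1 and 5 FPKM.

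The other membrane-type MMPs were much lower. Mmp16 (MT3-MMP) had 3.09 and 2.88 FPKM, which put Mmp15 above it by 4.10 ± 0.01 log2 units. Mmp17, a lipid-anchored form, straddled the detection limit at 1.02 and 0.917 FPKM. Mmp25, a lipid-anchored form known from neutrophils, had 0.187 and 0.149 FPKM, and Mmp24, known from the nervous system, had 0.0220 and 0.0542 FPKM. The 6 membrane-type genes nonetheless made up 60.4 ± 0.222% of the MMP sum, through Mmp14 and Mmp15.

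Of the remaining MMPs, Mmp23, a short membrane-tethered enzyme without the hemopexin domain of most MMPs, had 22.2 and 21.2 FPKM. Mmp11, or stromelysin 3, which furin activates inside the cell, had 11.1 and 11.3 FPKM. Mmp28, or epilysin, was detected at 2.86 and 3.003 FPKM. Part of the span of Mmp11 and of Mmp28 overlaps a gene on the opposite strand. For Mmp11 this is Chchd10, at 79.4 FPKM on average, and for Mmp28 it is 1700020L24Rik, at 1.55 FPKM. Since the library kit does not mark strand and no strand setting is stated, the levels of both MMPs are uncertain. Mmp19 stayed under the limit with 0.698 and 0.695 FPKM, and it shares 789 bases with Tmem198b, at 11.5 FPKM. Mmp9, the gelatinase B gene known from leukocytes and osteoclasts, had 0.0816 and 0.129 FPKM, 5.44 ± 0.11 log2 units below Mmp2. Mmp21 had 0.0191 and 0.0194 FPKM.

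Another 10 MMP genes lie side by side on chromosome 9 (7272514 to 7699585, mm9), in the order Mmp13, Mmp12, Mmp1b, Mmp3, Mmp1a, Mmp10, Mmp8, Mmp27, Mmp20 and Mmp7. They include collagenases, stromelysins, the macrophage elastase Mmp12 and the enamel protease Mmp20. None was detected, and 8 of the 10 were listed at 0 in both libraries. The exceptions were Mmp12, at 0.00779 and 0.0320 FPKM, and Mmp13, at 0.0176 and 0.00801 FPKM. All 10 have a promoter window in the RefSeq table (GRCm38.p6, 250 bases before to 50 bases after the gene start). The windows held few CG dinucleotides, between 0 and 4 with a median of 1, against a median of 7 over the first window of all 27025 genes of the table. The letters TGANTCA, which take in the AP-1 core TGA(C/G)TCA, occurred in 7 of the 10, and in 7.93% of all windows. TATAAA, the TATA box core, occurred in 8 of the 10, and in 14.2% of all windows. The 10 genes are relatives, and the windows of Mmp1a and Mmp1b are much alike, so these are not independent counts. G and C made up between 37.7% and 46.7% of each window, and the shares over all windows were not matched for this. Both strands were searched, TGANTCA reads the same on both, and the sites of the motifs did not overlap in these windows. In each of the 7 genes with TGANTCA, Mmp13, Mmp1b, Mmp3, Mmp1a, Mmp10, Mmp20 and Mmp7, it lay upstream of a TATAAA. In Mmp20 the letters were TGAATCA, which differ from the AP-1 core at the middle base. The windows of 4 of the 7 are printed as examples of this order, with the motif letters in capitals. They are Mmp13 (chr9:7272264-7272563, plus strand), Mmp3 (chr9:7445572-7445871, plus strand), Mmp10 (chr9:7502092-7502391, plus strand) and Mmp7 (chr9:7691840-7692139, plus strand).
Mmp13: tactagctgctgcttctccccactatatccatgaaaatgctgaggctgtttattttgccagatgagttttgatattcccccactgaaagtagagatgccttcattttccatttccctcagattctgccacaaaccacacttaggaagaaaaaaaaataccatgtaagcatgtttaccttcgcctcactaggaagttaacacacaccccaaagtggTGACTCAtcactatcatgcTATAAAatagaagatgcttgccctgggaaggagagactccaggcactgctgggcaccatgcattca
Mmp3: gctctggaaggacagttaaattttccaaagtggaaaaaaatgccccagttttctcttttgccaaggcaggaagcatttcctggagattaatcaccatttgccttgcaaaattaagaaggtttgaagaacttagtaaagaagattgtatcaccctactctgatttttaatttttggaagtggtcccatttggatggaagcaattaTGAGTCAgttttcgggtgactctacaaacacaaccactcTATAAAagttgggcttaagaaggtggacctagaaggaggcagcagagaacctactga
Mmp10: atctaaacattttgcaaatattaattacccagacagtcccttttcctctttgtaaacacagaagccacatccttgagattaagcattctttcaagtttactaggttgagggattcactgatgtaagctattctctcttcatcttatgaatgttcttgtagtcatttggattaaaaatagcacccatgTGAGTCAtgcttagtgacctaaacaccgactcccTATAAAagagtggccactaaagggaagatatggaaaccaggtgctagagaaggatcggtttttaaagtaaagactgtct
Mmp7: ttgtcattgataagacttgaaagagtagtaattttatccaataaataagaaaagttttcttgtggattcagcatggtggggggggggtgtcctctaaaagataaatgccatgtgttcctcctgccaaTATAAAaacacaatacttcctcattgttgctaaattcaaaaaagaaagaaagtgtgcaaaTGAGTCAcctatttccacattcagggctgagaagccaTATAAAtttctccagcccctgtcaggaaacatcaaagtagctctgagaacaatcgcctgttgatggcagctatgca
In Mmp13 the first base of TGANTCA lies 35 bases and that of TATAAA 16 bases before the annotated start. The distances were 46 and 7 bases in Mmp3, and 63 and 29 bases in Mmp10. Mmp7 holds TGANTCA 63 bases and TATAAA 26 bases before the start, and a further TATAAA 123 bases before it. A match of letters is a description of the window and no evidence that a factor binds there.

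**Figure D3:**
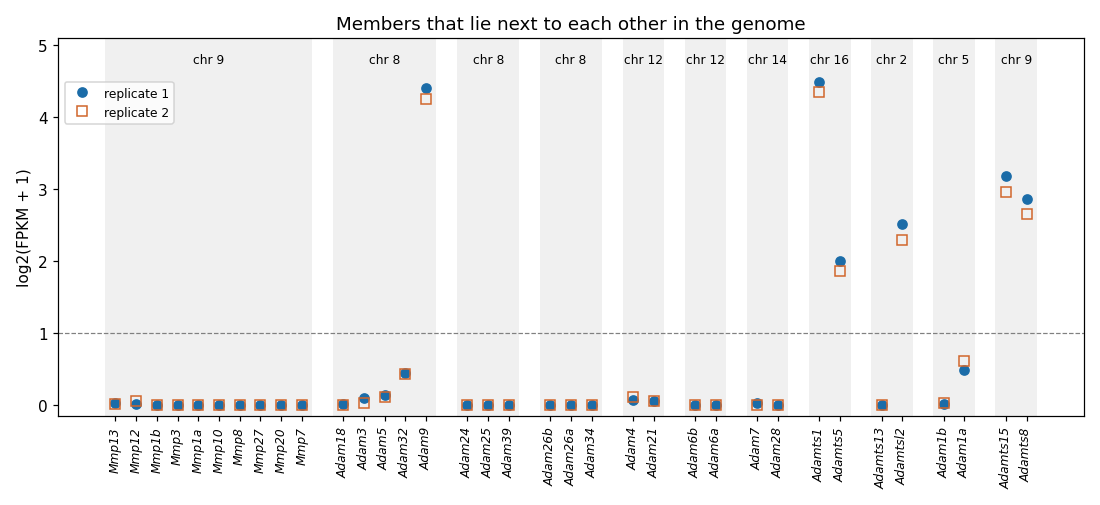
Level on the log2(FPKM + 1) scale of the 35 members that lie within 200 kb of another member, in chromosome order, with grey blocks for the 11 groups and a dashed line at 1 FPKM. The 10 MMP genes of chromosome 9 sit at or near 0, while Adam9 stands alone among the 5 genes of its chromosome 8 group.

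Timp2 was the highest inhibitor, with 42.0 and 41.3 FPKM (chromosome 11, 118162383 to 118217054, mm9). TIMP2 inhibits MMPs and also takes part in the activation of MMP2 by MT1-MMP. Timp3, whose protein is held in the matrix and also inhibits several ADAM and ADAMTS enzymes, had 34.8 and 32.7 FPKM (chromosome 10, 85763117 to 85812251). Timp1 followed with 14.96 and 16.4 FPKM (X chromosome, 20447292 to 20451861). The ranges of these 3 genes did not overlap. Timp2 exceeded Timp3 by 0.29 ± 0.05 log2 units, which is past the limit of 0.22 but within the wider one of 0.30, and Timp3 exceeded Timp1 by 1.06 ± 0.15. Timp4, known as the TIMP of the adult heart, had only 0.104 and 0.122 FPKM, 5.26 ± 0.03 log2 units below Timp2.

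Together Timp2 and Timp3 held 82.7 ± 1.32% of the TIMP sum. The TIMP sum was 0.425 times the MMP sum in replicate 1 and 0.440 times in replicate 2, a ratio of transcript levels that says nothing about protein or activity. Single genes weighed heavily in it, as the mean ratio was 0.235 without Timp2 and 0.637 without Mmp15. Timp1, Timp3 and Timp4 each lie wholly inside the span of a synapsin gene on the opposite strand. Those hosts were low, with Syn1 at 0.0972, Syn3 at 0.249 and Syn2 at 0.623 FPKM on average. The annotated transcripts of Timp3 and Syn3 share 1733 bases, so part of the small Syn3 value may stand for Timp3 fragments or the reverse, which was not tested. Reck, a membrane-anchored protein that restrains several MMPs and acts as a receptor partner for Wnt7, had 8.58 and 8.29 FPKM.

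All 4 TIMP genes have a promoter window in the same RefSeq table. They are printed, with CG dinucleotides in capitals, because the 4 genes differ in this content. The windows are Timp2 (chr11:118355362-118355661, minus strand), Timp3 (chr10:86300162-86300461, plus strand), Timp1 (chrX:20869916-20870215, plus strand) and Timp4 (chr6:115252156-115252455, minus strand).
Timp2: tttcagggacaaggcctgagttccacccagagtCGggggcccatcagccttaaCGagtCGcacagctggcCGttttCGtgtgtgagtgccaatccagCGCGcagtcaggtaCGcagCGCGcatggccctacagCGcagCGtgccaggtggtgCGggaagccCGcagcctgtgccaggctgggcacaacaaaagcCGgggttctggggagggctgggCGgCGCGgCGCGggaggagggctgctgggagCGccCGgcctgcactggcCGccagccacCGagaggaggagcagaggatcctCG
Timp3: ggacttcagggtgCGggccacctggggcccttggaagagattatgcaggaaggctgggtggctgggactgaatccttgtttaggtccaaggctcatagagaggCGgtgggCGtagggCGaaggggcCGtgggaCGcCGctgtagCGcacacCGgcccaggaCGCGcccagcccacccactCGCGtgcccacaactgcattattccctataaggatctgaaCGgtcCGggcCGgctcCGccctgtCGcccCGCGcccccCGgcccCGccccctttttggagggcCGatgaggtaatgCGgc
Timp1: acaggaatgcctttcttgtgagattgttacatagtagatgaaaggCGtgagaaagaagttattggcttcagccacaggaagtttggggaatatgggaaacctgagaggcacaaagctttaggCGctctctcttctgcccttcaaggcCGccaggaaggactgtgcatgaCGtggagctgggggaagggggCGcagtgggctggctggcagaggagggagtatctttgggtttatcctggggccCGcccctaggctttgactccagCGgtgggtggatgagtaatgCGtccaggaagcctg
Timp4: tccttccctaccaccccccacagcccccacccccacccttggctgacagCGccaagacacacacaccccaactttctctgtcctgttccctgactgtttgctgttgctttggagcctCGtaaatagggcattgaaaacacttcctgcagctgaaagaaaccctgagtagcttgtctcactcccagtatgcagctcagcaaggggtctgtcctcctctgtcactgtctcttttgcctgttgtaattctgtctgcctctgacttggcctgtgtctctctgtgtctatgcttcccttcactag
Timp2 held 25 CG dinucleotides, Timp3 24, Timp1 8 and Timp4 2, beside a median of 7 over all genes of the table. The detected Timp1 was thus nearer to Timp4 than to Timp2 or Timp3. GGGCGG, the core of the GC box, occurred on either strand in Timp1, Timp2 and Timp3 but not in Timp4, and in 35.9% of all windows of the table. None of the 4 windows held TGANTCA or TATAAA. The TIMP genes and the chromosome 9 MMP genes were picked for these counts after their levels were seen. No such count was made over all members, of which only 53 of 84, or 63.1%, have a window in the table.

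**Figure D4:**
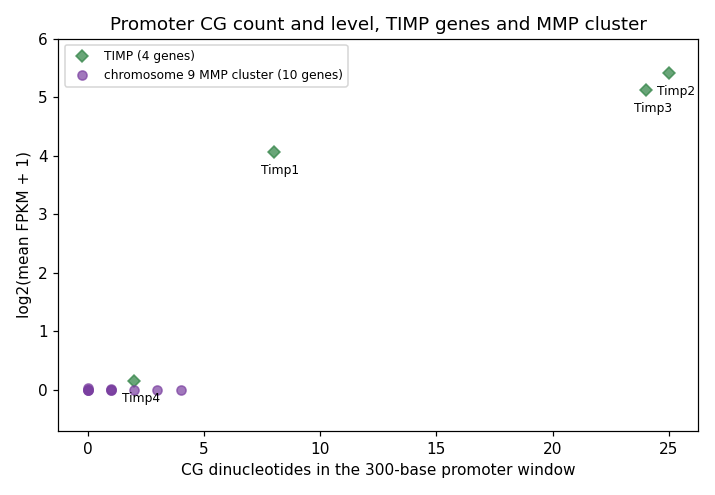
CG dinucleotides in the 300-base promoter window (horizontal axis) against log2(mean FPKM + 1) (vertical axis) for the 4 TIMP genes (diamonds) and the 10 chromosome 9 MMP genes (circles). Timp2 and Timp3, with 25 and 24 CG, stand at the upper right, and Timp4, with 2, sits among the MMP genes. Both sets were picked after their levels were seen and detected members outside the TIMPs are not plotted. No relation of CG count to level can be read from the plot.

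Adam10 was the most abundant ADAM, with 57.9 and 53.7 FPKM (chromosome 9, 70526804 to 70628036, mm9). ADAM10 makes the ligand-dependent cut of Notch receptors. Adam17, which sheds TNF and ligands of the EGF receptor and is needed for valve formation in mice, had 14.2 and 14.5 FPKM. Adam10 was thus 1.89 ± 0.09 log2 units above Adam17. The level of Adam10 overlapped that of Mmp14, so Adam10 and Mmp14 cannot be ordered. Adam19, a gene required for cushion and septum development in mice, was the second ADAM at 24.5 and 22.9 FPKM (chromosome 11, 45868004 to 45960845). It exceeded its close relative Adam12 by 2.79 ± 0.11 log2 units. Adam12, known from muscle and mesenchyme, had 2.88 and 2.26 FPKM, and Adam33, another relative, had 4.25 and 4.40 FPKM.

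Adam9 and Adam15 are widely expressed ADAMs with active proteases. Adam9 had 20.2 and 18.0 FPKM and Adam15 had 16.0 and 16.4 FPKM. Their log2 ratio of 0.22 ± 0.14 did not pass the limit of 0.22, although in replicate 1 alone it was 0.31. It was the only one of 30 pairs of related genes that did not pass this limit. Adam11, Adam22 and Adam23 encode proteins without protease activity, best known as neuronal receptors of LGI proteins. Adam11 stood at 9.51 and 8.84 FPKM, Adam22 at 2.25 and 2.33 FPKM and Adam23 at 1.02 and 1.05 FPKM. Adam11 was thus above Adam22, and Adam22 above Adam23, in both libraries.

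The other 22 ADAM genes were not detected, and 12 of them were listed at 0 in both libraries. Adam8, known from leukocytes, came nearest at 0.471 and 0.598 FPKM. Many of the 22 are known from testis or epididymis, such as the sperm surface genes Adam2, listed at 0, and Adam3, at 0.0628 and 0.0169 FPKM. In the GENCODE M21 annotation 13 members have their coding sequence in 1 exon, all of them ADAMs. None of these 13 was detected, 10 were listed at 0 and the other 3, Adam4, Adam21 and Adam1b, averaged no more than 0.0648 FPKM. Among the 19 ADAMs with more coding exons, 10 were detected. The 19 include the undetected Adam1a, counted with 14 coding exons. Its annotated transcripts share 1811 bases with Mapkapk5, so its place in this split is uncertain. Over all protein-coding genes with coding exons in that annotation, 22.1% of those with 1 coding exon and 62.3% of those with more were detected. Adam1a, at 0.391 and 0.520 FPKM, is uncertain because it lies almost wholly within the span of Mapkapk5, at 20.6 FPKM on average, and shares 1205 bases with Adam1b. Adam4 likewise lies within the span of Cox16, at 27.0 FPKM.

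Adamts1 was the highest ADAMTS gene, with 21.4 and 19.3 FPKM (chromosome 16, 85794072 to 85803358, mm9). It encodes a versican-cleaving enzyme that acts on the matrix of trabeculae. Its subgroup of proteoglycan-cleaving enzymes also holds Adamts4, Adamts5, Adamts8, Adamts9, Adamts15 and Adamts20, and Adamts1 gave 45.0 ± 0.929% of the sum of these 7 genes. Adamts9, needed for normal cushions and valves in mice, had 8.62 and 7.47 FPKM, 1.24 ± 0.03 log2 units below Adamts1. Adamts15 had 8.02 and 6.78 FPKM and Adamts8 had 6.23 and 5.29 FPKM. The last 2 are neighbours on chromosome 9, transcribed away from each other, and the log2 ratio of Adamts8 to Adamts15 was -0.31 ± 0.01. Adamts5, known for clearing versican from developing valves, lies next to Adamts1 and had 2.99 and 2.61 FPKM, a log2 distance of 2.49 ± 0.00111. Adamts4 and Adamts20 were not detected, at 0.535 and 0.449 FPKM and at 0.501 and 0.407 FPKM.

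Adamts19, a gene whose loss causes valve disease in humans and mice, was close to Adamts9 and Adamts15, with 8.04 and 6.61 FPKM. Adamts9 was above both of the others in each library, though its mean log2 ratio to Adamts15 was only 0.11, while Adamts15 and Adamts19 changed places between the libraries and cannot be ordered. Adamts10, Adamts6 and Adamts17 encode enzymes linked to fibrillin microfibrils. Adamts10 led them with 14.3 and 15.02 FPKM, Adamts6 had 5.71 and 5.66 FPKM and Adamts17 had 2.72 and 2.16 FPKM. The log2 ratio of Adamts10 was 1.23 ± 0.05 to Adamts6 and 2.19 ± 0.21 to Adamts17.

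The procollagen N-proteinases were modest, with a sum of 6.33 ± 0.676 FPKM. Adamts2 had 4.70 and 4.01 FPKM, Adamts3, which also takes part in the maturation of VEGF-C, had 1.30 and 1.10 FPKM, and Adamts14 was under the limit at 0.803 and 0.740 FPKM. Adamts7, which cuts cartilage oligomeric matrix protein, had 6.30 and 5.73 FPKM, and its relative Adamts12 had 0.919 and 0.796 FPKM. Part of Adamts7 overlaps Tbc1d2b on the opposite strand, at 4.746 FPKM, so its level is uncertain. Adamts18, at 0.610 and 0.537 FPKM, and Adamts16, at 0.0563 and 0.0675 FPKM, were both undetected. Adamts13, the von Willebrand factor protease of liver, was listed at 0.

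All ADAMTS-like genes but Adamtsl3 were detected. Adamtsl2, whose product binds fibrillin and a latent TGF-beta binding protein, had 4.71 and 3.90 FPKM. Adamtsl5 had 3.86 and 3.59 FPKM, Adamtsl1 had 2.58 and 2.48 FPKM and Adamtsl4, a fibrillin-binding protein whose loss displaces the lens in humans, had 2.25 and 1.59 FPKM. Adamtsl3 was under the limit at 0.599 and 0.447 FPKM. Adamtsl2 exceeded Adamtsl4 by 0.86 ± 0.07 log2 units and Adamtsl1 exceeded Adamtsl3 by 1.21 ± 0.07.

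**Figure D5:**
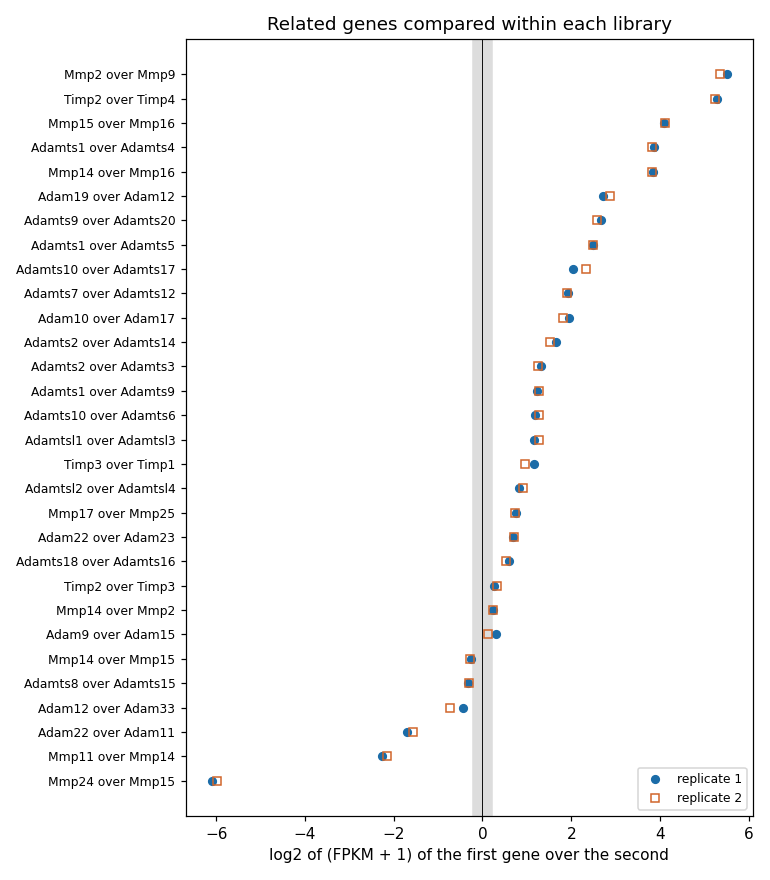
Log2 ratio of (FPKM + 1) for 30 pairs of related genes, in replicate 1 (filled circles) and replicate 2 (open squares), with a grey band for ratios within 0.22 log2 units of 0. Adam9 over Adam15 is the only pair whose mean, 0.22, lies inside the band, and Mmp2 over Mmp9 is the largest positive ratio at 5.44.

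Across the 30 pairs, 29 had a mean ratio larger than 0.22 log2 units in either direction, beside 83.1% of all pairs of protein-coding symbols and 91.7% of the pairs whose genes both averaged at least 1 FPKM. Most pairs of any genes pass this limit, so the count itself says nothing particular about related genes. Errors common to both libraries are not covered by that limit. Altogether 23 members share at least 75 bases at 98% identity with the annotated transcripts of another gene, among them Adam17 with Iah1 (17.3 FPKM, 311 bases) and Adamts9 with A730049H05Rik (1.47 FPKM, 1217 bases), and their levels are uncertain to that extent. In the order of the 37 members averaging at least 1 FPKM, 25 of 36 neighbouring pairs stood in the same order in both libraries and 11 changed places. Of the 36, 17 had ranges that did not overlap between the genes, and 10 had a mean log2 ratio larger than 0.22. From Mmp16 down to Adam22, through Mmp28, Adamts5, Adam12, Adamtsl1 and Adamts17, neighbours changed places except Adamts5 and Adam12, which kept their order with a mean log2 ratio of 0.09.

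Of the genes that act with these enzymes, drawn from lists by role, 38 of 52 were detected, beside 52.4% of all protein-coding symbols. The counts per list that follow stand beside the same share and rest on few genes each. Of the activation list 8 of 9 were detected, with the MMP inducer Bsg at 313 ± 14.97 FPKM, the proprotein convertase Furin at 41.8 ± 0.328 FPKM and the plasminogen activator Plat at 20.7 ± 0.423 FPKM (SD, n = 2). Plg, which encodes plasminogen itself, averaged 0.0289 ± 0.0209 FPKM. Of the 6 genes of hyaluronan and versican-type proteoglycans 3 were detected. The versican gene Vcan, a main substrate of Adamts1, Adamts5 and Adamts9, had 29.1 ± 2.43 FPKM, and Hapln1, which links versican to hyaluronan, had 37.1 ± 0.557 FPKM. The aggrecan gene Acan, the other classic substrate, averaged 0.0890 ± 0.00811 FPKM.

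Among 6 microfibril and elastic fibre genes 5 were detected, led by Eln at 94.9 ± 15.6 FPKM, with Fbn2 at 12.2 ± 1.62 and Fbn1 at 7.99 ± 1.64 FPKM. Procollagen processing had 2 of 5, the C-proteinase Bmp1 at 33.5 ± 1.47 FPKM and its enhancer Pcolce at 49.8 ± 0.913 FPKM, both far above the N-proteinase Adamts2. Of 8 partners that carry ADAM10 or ADAM17 through the cell 6 were detected. Tspan14, a tetraspanin partner of ADAM10, had 20.3 ± 0.118 FPKM, and Rhbdf1, an iRhom partner of ADAM17, had 12.3 ± 0.592 FPKM. Of 8 shed ligands and receptors 7 were detected, among them Hbegf at 5.80 ± 0.108 and Notch1 at 4.85 ± 0.945 FPKM, while Tnf averaged 0.0257 ± 0.0164 FPKM. Other inhibitors and clearance genes had 7 of 10, with Cst3 at 254 ± 15.5, Serpine2 at 43.8 ± 1.47 and the clearance receptor Lrp1 at 7.47 ± 0.678 FPKM.

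A 2-fold rule could say little about how well the libraries matched over the members, since hardly any gene passed it. None of the 23 members averaging at least 5 FPKM differed 2-fold between replicate 2 and replicate 1, beside 0.0693% of the protein-coding symbols at that level. None of the 37 members averaging at least 1 FPKM did so either, beside 0.111%. Their log2 differences ran from -0.32 for Adamtsl4 to 0.12 for Timp1. Of the 37, 4 went past 0.22 log2 units, Adamtsl4, Adam12, Adamts19 and Adamts17, all lower in replicate 2. That limit is the 95th percentile over protein-coding symbols at that level, so the members did not match more closely than other genes by this measure. In all, 28 of the 37 were lower in replicate 2, beside 69.3% of protein-coding symbols. After replicate 2 was rescaled by the median ratio, 26 of the 37 were lower in it. The share of protein-coding symbols lower in it was then 49.996%, which the rescaling itself sets and which is no observed background. The median difference was -0.09 over these members and -0.04 over protein-coding symbols averaging at least 1 FPKM.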

How the data were processed

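RNA was measured in 2 libraries of embryonic heart, extracted with Trizol and prepared with the Illumina TruSeq RNA v2 kit, per the labels' protocols. The authors deposited an FPKM value per gene for each library. The tools GSNAP, Cufflinks and Cuffnorm, and mm9 and hg19 as builds, are named per the submitters' processing notes. No annotation, strand setting or multi-mapping rule is stated there. Positions of genes are those of the files and lie on mm9, since genes on chromosome 1 reach 197054592, beyond the last gene end of 195323493 in GENCODE M21 (GRCm38). Promoter windows are those of RefSeq on GRCm38.p6, matched by symbol.

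Rows of 1 symbol were summed over protein-coding rows. The members and gene lists were chosen with earlier results of these data known. Every member may be named. Other genes named are listed companions, markers or genes that overlap a member. No test was run, since 2 libraries of 1 group give no contrast. The limit of 0.22 log2 units is the 95th percentile of differences between the libraries. Shared sequence was sought with BLAST 2.17.0 in GENCODE M21 transcripts (98% identity over 75 bases), coding exons in the same annotation. A planned count of zinc-binding motifs in proteins was not run. The genes whose promoter windows were searched or printed, the motifs and CG counts, the split by coding exons and the bins of transcript length were chosen after the levels were seen, and no alternative was tried for them. Absolute depth is unknown, so no counting interval is given. The depth ratio, the 2-fold rule and the rescaling were tested on simulated data, and the other steps were not. The simulated libraries held no difference by transcript length. Calculations used Python 3.11.15, NumPy 2.4.6 and pandas 2.3.3. Alternatives covered the detection limit, pseudocount, filter, rescaling and single libraries.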

Additional observations from a re-analysis of the deposited data

How the results depend on the processing

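Across 44 results and 184 alternative values, 177 kept their side of the limit or stayed within the allowed range. Only the 30 pair ratios could reverse, and none did. Part of the 177 was fixed in advance, so the tally is no measure of how firm the results are. No member symbol has more than 1 row, so taking the highest row could change nothing for the members. The TIMP to MMP ratio of a single library always lies within the SD of the 2 libraries. The number of detected members was 42 at 0.5 FPKM, 34 at 2 FPKM and between 37 and 38 with each library alone. The TIMP to MMP ratio was 0.235 without Timp2 and 0.637 without Mmp15, and between 0.425 and 0.440 with each library alone. Pairs larger than the limit numbered 28 with a pseudocount of 0.1, 26 with the limit of 0.30 from genes between 1 and 5 FPKM, and between 29 and 30 with each library alone. With that wider limit Timp2 over Timp3 (0.29), Mmp14 over Mmp2 (0.24) and Mmp14 over Mmp15 (-0.27) no longer passed. With a pseudocount of 0.1 and its limit of 0.28, Mmp14 over Mmp2 (0.25) did not pass. After replicate 2 was rescaled by the median ratio of 0.971, 26 of the members were lower in it. The share of protein-coding symbols, 49.996%, is set by the rescaling itself. This rescaling and the other gaps for neighbouring members (100 and 500 kb, with 6 and 7 of them detected) were chosen after seeing the data. The count of zinc-binding motifs at other detection limits and with each library alone was not run, since no protein sequences were used here. No paired analysis was possible because both libraries belong to 1 group. Without fragment counts, levels under about 0.1 FPKM rest on few fragments and their order was not read.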

Other observations

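Of the 35 members that lie within 200 kb of another member 6 were detected, and of the other 49 members 31 were, a distance chosen after the data were seen. Over all protein-coding symbols 52.4% were detected. The 35 include the 10 MMP genes of chromosome 9 and many of the undetected ADAM genes described above. The split is therefore not separate from family. The 6 were Adam9, Adamts1, Adamts5, Adamts8, Adamts15 and Adamtsl2. Whole groups of neighbours were listed at 0 in several places. On chromosome 8 these were Adam24, Adam25 and Adam39, and Adam26b, Adam26a and Adam34. On chromosome 12 they were Adam6b and Adam6a. A group on chromosome 8 held Adam18, Adam3, Adam5 and Adam32, at mean levels between 0.00334 and 0.351 FPKM, beside Adam9 at 19.1 FPKM. On chromosome 2, Adamts13 was listed at 0 while its neighbour Adamtsl2 averaged 4.30 FPKM.

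The share of genes lower in replicate 2 differed with transcript length. Among protein-coding symbols averaging at least 1 FPKM, 60.2% of those whose longest transcript is under 2000 bases were lower in replicate 2, 64.7% between 2000 and 4000 bases, 73.7% between 4000 and 6000 bases and 87.6% at 6000 bases or more. Of the members, 1 of 2 under 2000 bases, 5 of 9 between 2000 and 4000 bases, 14 of 16 between 4000 and 6000 bases and 8 of 10 at 6000 bases or more were lower in replicate 2. The detected members have long transcripts, with a median of 4722 bases against 3464.5 bases over protein-coding symbols at that level. The part of length in the differences of single members was not tested.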
